A study of Mus musculus with 7 samples.

Results

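Colon epithelium of mice given the dietary carcinogen PhIP and then dextran sulfate sodium (DSS), taken on day 3 after the DSS ended, was compared with colon epithelium of untreated mice. The comparison takes 2 of the 7 RNA sequencing samples of the series, chosen by their titles: the PhIP/DSS day 3 library and the control library. The tables of the 7 libraries list 18036 genes in all, and the 13405 genes with at least 10 reads summed over the pair were compared. Mice of every group were female hCYP1A animals, labelled C57BL/6, and 6 weeks old when the groups were formed. The PhIP/DSS mice had 2 doses of PhIP at 100 mg/kg, 4 days apart, and a week later drank water with 1.5% DSS for 5 days. A library of mice given 1.5% DSS for 5 days without PhIP, also taken on day 3, serves as the nearest comparison, and the control mice had no treatment. The labels describe the pathology of both treated groups as colitis and that of the controls as normal. Each library was made from equal amounts of RNA of 3 mice, and the epithelium had been scraped from the muscle layer, so a library is 1 pool and the spread between mice cannot be seen.

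PhIP (2-amino-1-methyl-6-phenylimidazo[4,5-b]pyridine) is a heterocyclic amine that forms when meat is cooked at high heat. CYP1A enzymes activate it to a form that binds DNA, and mice with the human CYP1A genes are used because the human and mouse enzymes treat PhIP differently. DSS in drinking water injures the colon lining and lets bacteria reach it. The epithelium answers such injury with antibacterial proteins and reactive oxygen and nitrogen, while absorptive cells, goblet cells, tuft cells and hormone cells are lost and replaced from the crypts. Neutrophils enter the wall early and macrophages and fibroblasts take part in repair.

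The PhIP/DSS day 3 library held 8.42 M unique gene reads, the DSS day 3 library 8.78 M and the control library 7.66 M. Lypd8, an epithelial protein that keeps flagellated bacteria off the mucosa, had the most reads in each of these libraries. The 20 genes with most reads took 10.5% of the reads in the PhIP/DSS day 3 library and 9.92% in the control. Mouse Cyp1a1 and Cyp1a2, whose human counterparts these mice carry, were listed in none of the 7 tables. The 14 epithelial identity markers were near each other in level, with a summed level of 14085 RPKM (reads per kilobase of gene, scaled to library size) in PhIP/DSS day 3, 12748 RPKM in DSS day 3 and 12710 RPKM in control. In PhIP/DSS day 3, 0 of the 14 differed by 2-fold from control, and in DSS day 3 there was 1, Phgr1, at 678.6 RPKM against 1385 in control. In bulk tissue, fewer cells of a type and less RNA per cell cannot be told apart.

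With 1 pool a side no test between conditions was possible. Differences are given as the ratio of depth-scaled unique reads, PhIP/DSS day 3 over control, with an exact 95% interval from the split of the reads between the libraries. The intervals cover counting error only, not the spread between mice, which 1 pool a side cannot show. Amplified reads without molecular identifiers are not independent molecules, so the intervals may be too narrow even for counting error. A gene with 0 reads in 1 library was entered at 3 reads, so that its ratio depends on that entry and is given without an interval. Of the 13405 genes, 735 (5.48%) were at least 2-fold higher in PhIP/DSS day 3 than in control and 924 (6.89%) were at least 2-fold lower. The remaining 87.6% lay within 2-fold, and the median log2 ratio of all genes was -0.04. For 270 of the higher and 243 of the lower genes the whole counting interval lay past 2-fold. There were 68 genes at least 10-fold higher and 44 at least 10-fold lower. In lists of scarce genes, a gene high in 1 library passes the minimum of 10 reads more easily than one that is low in both, so counts over such lists are descriptions only. Near the read minimum, 263 genes had 10 or 11 reads over the pair and were counted, and 316 had 8 or 9 reads and were not.

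The gene furthest above control was Clca4b, of the family of calcium-activated chloride channel regulators, at 426.1 RPKM in PhIP/DSS day 3, 642.5 in DSS day 3 and 3.14 in control, a ratio over control of 136 (108 to 174). The sequence of Clca4b is close to that of Clca4a, and reads may have been split between them. Clca4a was at 322.3 RPKM in PhIP/DSS day 3, 311.1 in DSS day 3 and 92.4 in control. Plet1, a surface protein of epithelial progenitors and wound edges, was at 297.9 RPKM in PhIP/DSS day 3, 326.3 in DSS day 3 and 11.45 in control, a ratio over control of 26.01 (22.2 to 30.6). Ly6d, a surface protein of the Ly6 family, was at 103.0 RPKM in PhIP/DSS day 3, 244.0 in DSS day 3 and 4.32 in control, a ratio over control of 23.8 (15.7 to 37.9). Slpi, an inhibitor of leukocyte proteases that also kills bacteria, stood at 81.4 RPKM in PhIP/DSS day 3 and 84.6 in DSS day 3, against 3.50 in control. Mmp7, a metalloproteinase secreted by epithelium, had 200 reads in PhIP/DSS day 3, 405 in DSS day 3 and 2 in control, and its ratio over control of 91.0 has an interval of 24.9 to 756.4. Lrg1, an acute phase glycoprotein, had 283 reads in PhIP/DSS day 3, 1366 in DSS day 3 and 2 in control.

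The remaining genes among the 15 highest follow here, except Nos2, Reg3b and Hspa1b, which are given with their groups. Plat, the tissue plasminogen activator, was at 9.18 RPKM in PhIP/DSS day 3, 11.9 in DSS day 3 and 0.205 in control. Prss22, a serine protease, had 99 reads in PhIP/DSS day 3, 185 in DSS day 3 and 1 in control. Steap4, a metalloreductase of iron and copper, was at 23.3 RPKM in PhIP/DSS day 3, 15.9 in DSS day 3 and 1.04 in control. Mfsd2a, which carries lysophosphatidylcholine, was at 17.3 RPKM in PhIP/DSS day 3, 18.6 in DSS day 3 and 0.843 in control. Aldh1a3, which makes retinoic acid, was at 18.1 RPKM in PhIP/DSS day 3, 29.2 in DSS day 3 and 1.07 in control. Tnfrsf11b, the decoy receptor osteoprotegerin, was at 9.10 RPKM in PhIP/DSS day 3, 6.42 in DSS day 3 and 0.417 in control. Apart from Clca4a, these genes were chosen for their distance from this control library, which DSS day 3 over control shares.

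**Figure D1:**
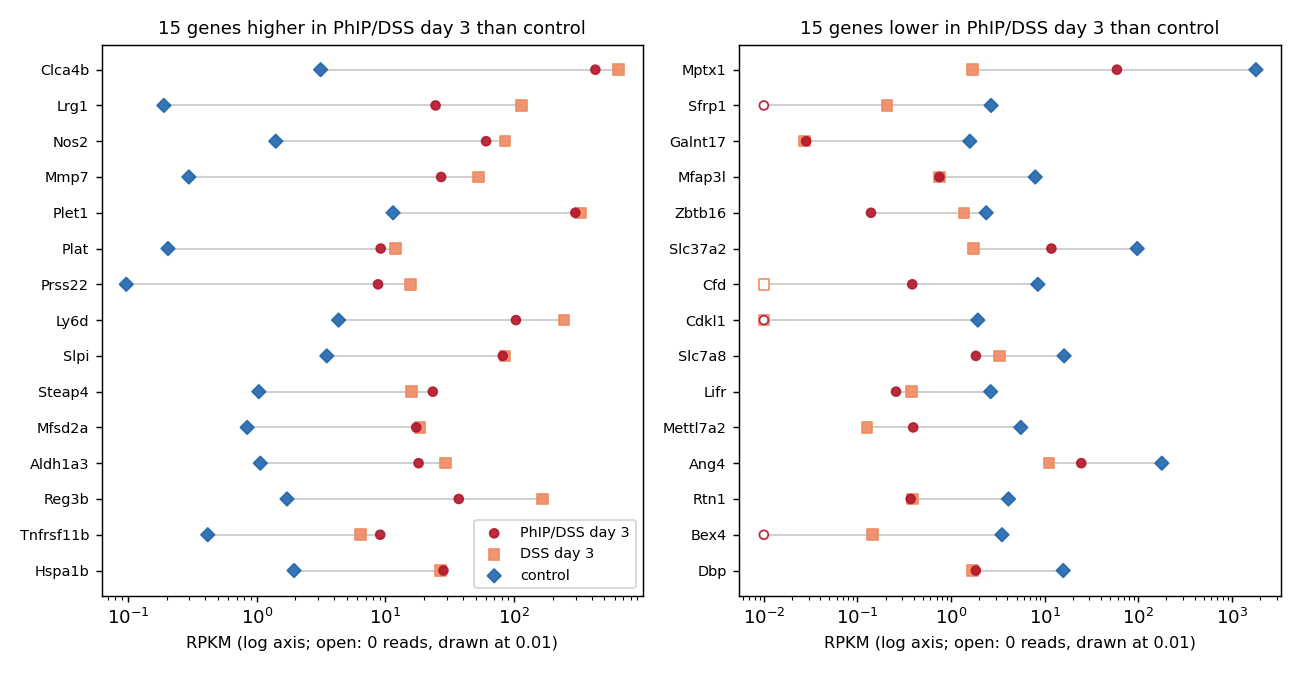
RPKM on a log axis in PhIP/DSS day 3 (circles), DSS day 3 (squares) and control (diamonds) for the 15 genes furthest above control and the 15 furthest below it, ranked by the bound of the counting interval nearest to 1; open symbols had 0 reads. Clca4b, at 426.1 RPKM in PhIP/DSS day 3 and 3.14 in control, heads the left panel, and Mptx1, at 59.1 RPKM in PhIP/DSS day 3 and 1804 in control, heads the right panel.

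The gene furthest below control was Mptx1, a mucosal pentraxin of colon epithelium, at 59.1 RPKM in PhIP/DSS day 3, 1.70 in DSS day 3 and 1804 in control. Its ratio over control was 0.0328 (0.0296 to 0.0362), and it was 34.7-fold (19.7 to 67.8) higher in PhIP/DSS day 3 than in DSS day 3. Within the PhIP/DSS series Mptx1 stood at 5.11, 59.1 and 131.9 RPKM on days 1, 3 and 7. Ang4, an angiogenin with antibacterial action, was at 24.6 RPKM in PhIP/DSS day 3, 11.1 in DSS day 3 and 178.3 in control. Slc37a2, a sugar phosphate exchanger, was at 11.8 RPKM in PhIP/DSS day 3, 1.74 in DSS day 3 and 97.3 in control. Slc7a8, an amino acid transporter, was at 1.84 RPKM in PhIP/DSS day 3, 3.28 in DSS day 3 and 16.1 in control.

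Of the other genes in the low group, Sfrp1, a secreted Wnt inhibitor, had 0 reads in PhIP/DSS day 3, 8 in DSS day 3 and 90 in control. With the 0 entered as 3 reads, the ratio of Sfrp1 over control was 0.0303. Lifr, the receptor of leukemia inhibitory factor, had 21 reads in PhIP/DSS day 3, 32 in DSS day 3 and 196 in control. Zbtb16, a transcription factor, had 6 reads in PhIP/DSS day 3, 62 in DSS day 3 and 93 in control. Dbp, a transcription factor driven by the circadian clock, was at 1.84 RPKM in PhIP/DSS day 3, 1.70 in DSS day 3 and 15.8 in control. Galnt17 had 1 read in PhIP/DSS day 3 and 51 in control, a ratio of 0.0178 (4.43e-04 to 0.104). Mfap3l, Rtn1 and Mettl7a2 had 41, 11 and 6 reads in PhIP/DSS day 3, against 394, 111 and 77 in control. Cdkl1 and Bex4 had 0 reads in PhIP/DSS day 3, against 25 and 21 in control. Cfd, the complement protease adipsin of fat cells, had 3 reads in PhIP/DSS day 3 and 60 in control, a ratio of 0.0455 (0.00913 to 0.139). The adipocyte marker list summed to 8.55 RPKM in PhIP/DSS day 3, 9.26 RPKM in DSS day 3 and 27.4 RPKM in control, and the part of adipose tissue in the value of Cfd was not tested.

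Enzymes with which epithelium makes oxidants were higher as a group. Of the 9 oxidant genes counted, 7 were at least 2-fold higher in PhIP/DSS day 3 than in control and 0 were 2-fold lower, beside 5.48% and 6.89% of all genes. The median log2 ratio was 1.98 beside -0.04 over all genes. Nos2, the inducible nitric oxide synthase, was at 60.4 RPKM in PhIP/DSS day 3, 84.8 in DSS day 3 and 1.41 in control, a ratio over control of 43.0 (31.8 to 59.5). Duox2, which releases hydrogen peroxide toward the lumen, was at 99.3 RPKM in PhIP/DSS day 3, 85.6 in DSS day 3 and 25.2 in control, a ratio over control of 3.95 (3.67 to 4.25). Its maturation factor Duoxa2 was at 148.3 RPKM in PhIP/DSS day 3, 96.8 in DSS day 3 and 12.05 in control, a ratio over control of 12.3 (10.4 to 14.7). Duoxa2 was also 1.53-fold higher in PhIP/DSS day 3 than in DSS day 3. Noxo1, the organizer of the NOX1 oxidase, had a ratio over control of 1.45 and lay inside 2-fold. Cyba, the p22phox subunit shared by NADPH oxidases of epithelium and phagocytes, was at 105.5 RPKM in PhIP/DSS day 3, 108.5 in DSS day 3 and 40.1 in control.

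Antibacterial and acute phase genes were split. Of 28 counted, 15 were at least 2-fold higher in PhIP/DSS day 3 than in control and 3 at least 2-fold lower, beside 5.48% and 6.89% of all genes, with a median log2 ratio of 1.23. Reg3b, a bactericidal C-type lectin, was at 37.1 RPKM in PhIP/DSS day 3, 165.6 in DSS day 3 and 1.72 in control, a ratio over control of 21.6 (11.5 to 45.6). Its close relative Reg3g had 91 reads in PhIP/DSS day 3, 320 in DSS day 3 and 3 in control. In the PhIP/DSS series Reg3b stood at 463.3, 37.1 and 3.14 RPKM on days 1, 3 and 7. The most abundant members differed less: Lypd8 had a ratio of 1.59 and Zg16, a lectin that binds Gram-positive bacteria, a ratio of 1.31. Saa1, a serum amyloid A gene made by colonocytes, was at 1286 RPKM in PhIP/DSS day 3, 1192 in DSS day 3 and 1283 in control. The 3 lower members were Mptx1, Ang4 and Wfdc2, a secreted protease inhibitor, which was at 149.6 RPKM in PhIP/DSS day 3, 68.3 in DSS day 3 and 333.7 in control.

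Cytokine genes and genes of their signalling were of mixed abundance. Of the 21 genes listed, 12 had enough reads to be counted, and of these 9 were at least 2-fold higher in PhIP/DSS day 3 than in control and 0 lower, beside 5.48% and 6.89% of all genes. Some of them, such as Tnf and Il11, were counted only through their reads in PhIP/DSS day 3, so the split is partly fixed by the read minimum. Members with many reads included Il1rn, the interleukin 1 receptor antagonist, and Il18, a cytokine that epithelium makes, which lay inside 2-fold with 1534 and 909 reads in PhIP/DSS day 3, against 1047 and 526 in control. Tnfrsf1b, a receptor of tumor necrosis factor, had 1104 reads in PhIP/DSS day 3, 1947 in DSS day 3 and 249 in control. Tnf, tumor necrosis factor, had 91 reads in PhIP/DSS day 3, 135 in DSS day 3 and 5 in control, a ratio over control of 16.6 (6.84 to 52.2). Il1b, interleukin 1 beta, was at 7.51 RPKM in PhIP/DSS day 3, 127.2 in DSS day 3 and 1.28 in control. Socs3, the feedback inhibitor of STAT3 signalling, was at 27.4 RPKM in PhIP/DSS day 3, 36.3 in DSS day 3 and 2.71 in control. Of 16 chemokine genes counted, 8 were at least 2-fold higher and 2 at least 2-fold lower, beside 5.48% and 6.89% of all genes, with a median log2 ratio of 0.85. Cxcl5, a neutrophil attractant of epithelium, was at 11.9 RPKM in PhIP/DSS day 3, 10.9 in DSS day 3 and 0.867 in control. Cxcl9, which attracts activated T cells, was at 3.76 RPKM in PhIP/DSS day 3, 7.49 in DSS day 3 and 0.359 in control. Ccl5, a product of T and NK cells, and Cxcl12, made by stroma, were the 2 lower members, with 11 and 6 reads in PhIP/DSS day 3 against 40 and 17 in control.

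Summed markers of neutrophils, of macrophages and monocytes, and of fibroblasts were also higher than in control. The neutrophil list held 21 genes and summed to 84.2 RPKM in PhIP/DSS day 3, 1311 RPKM in DSS day 3 and 24.6 RPKM in control. Of these genes 11 had enough reads to be counted against control, several of them, such as S100a8, S100a9, Hdc and Trem1, only through their reads in PhIP/DSS day 3. The 9 of the 11 that were at least 2-fold higher in PhIP/DSS day 3 were therefore partly selected by the difference. Slfn4 alone gave 45.7 of the 84.2 RPKM and 17.3 of the 24.6 RPKM, and it was at 37.1 RPKM in DSS day 3. Of the 20 members listed in the tables, 3 had 0 reads in PhIP/DSS day 3 (Trem3, Camp and Stfa2l1), 0 in DSS day 3 and 8 in control (Retnlg, Clec4e, Fpr1, Mmp8, Ngp, Camp, Stfa2l1 and Hdc). The neutrophil collagenase Mmp8 had 4 reads in PhIP/DSS day 3, 485 in DSS day 3 and 0 in control. S100a8 and S100a9, the calprotectin subunits, had 37 and 59 reads in PhIP/DSS day 3, 1433 and 2497 in DSS day 3, and 1 and 3 in control. The macrophage and monocyte list summed to 133.7 RPKM in PhIP/DSS day 3, 386.7 RPKM in DSS day 3 and 67.7 RPKM in control. Of its 17 members counted, 10 were at least 2-fold higher in PhIP/DSS day 3 than in control, beside 5.48% of all genes. Arg1, an arginase of macrophages engaged in repair, had 92 reads in PhIP/DSS day 3, 359 in DSS day 3 and 4 in control. The fibroblast and matrix list summed to 83.6 RPKM in PhIP/DSS day 3, 201.6 RPKM in DSS day 3 and 30.9 RPKM in control. Of its 18 members counted, 13 were at least 2-fold higher than control and 0 lower, beside 5.48% and 6.89% of all genes. Col1a1, a chain of type I collagen, was at 8.12 RPKM in PhIP/DSS day 3, 16.9 in DSS day 3 and 1.16 in control.

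Lymphocyte markers were not higher as lists. The counts in this paragraph stand beside 5.48% of all genes at least 2-fold higher than control and 6.89% at least 2-fold lower. In lists this short, single genes past 2-fold say little about a cell type. The T and NK cell list summed to 18.3 RPKM in PhIP/DSS day 3, 20.6 RPKM in DSS day 3 and 33.8 RPKM in control, with 1 of 19 members, Zap70, at least 2-fold higher than control and 3, Cd3g, Cd7 and Ccl5, lower. The B and plasma cell list summed to 29.4 RPKM in PhIP/DSS day 3, 30.6 RPKM in DSS day 3 and 31.2 RPKM in control, with 2 of 13 members at least 2-fold higher and 5 lower. In it Jchain, of antibody-secreting cells, had a ratio over control of 1.76, while Cd79b, of B cells, had 17 reads in PhIP/DSS day 3 against 45 in control. Of 6 mast cell markers counted, of 10 listed, 3 were at least 2-fold higher (Mcpt1, Mcpt2 and Cpa3) and 1, the stem cell factor receptor Kit, lower, with 324 reads in PhIP/DSS day 3 against 607 in control. The mucosal proteases Mcpt1 and Mcpt2 were at 22.1 and 11.9 RPKM in PhIP/DSS day 3, 8.42 and 6.33 in DSS day 3, and 10.7 and 4.03 in control. The part of these cells in the antibacterial, cytokine and metalloproteinase values was not tested. Of 12 metalloproteinase and inhibitor genes counted, 7 were at least 2-fold higher than control and 2, Timp3 and Timp4, at least 2-fold lower. Of the scarcer cell types, 1 of 7 smooth muscle markers (Myl9) was at least 2-fold higher and 3 (Myh11, Des and Synpo2) lower. Of 8 endothelial markers 1 (Cdh5) was higher and 1 (Kdr) lower, and of 4 enteric nerve and glia markers 1 (Ret) was higher and 1 (Elavl3) lower.

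**Figure D2:**
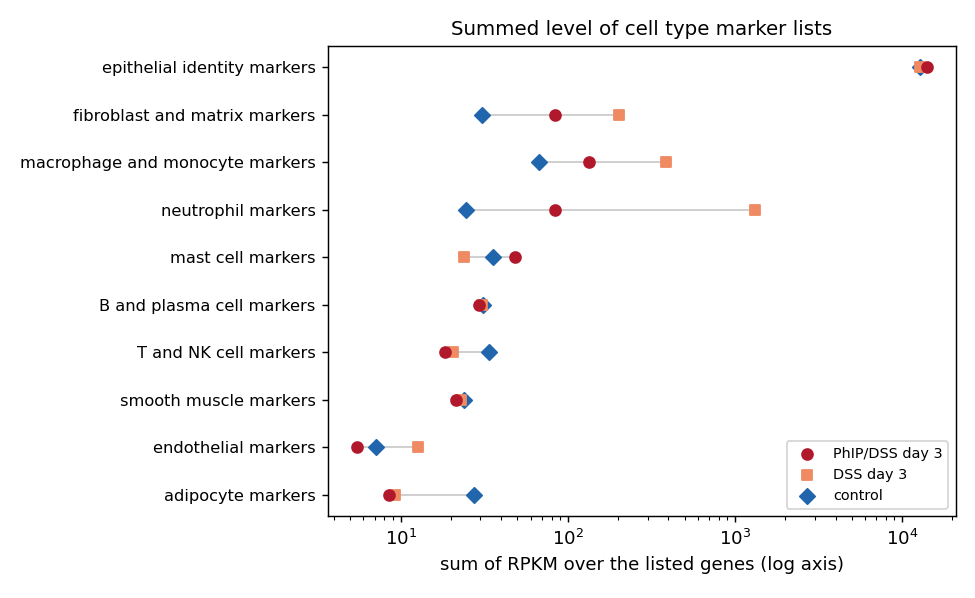
Summed RPKM of 10 marker lists on a log axis in PhIP/DSS day 3 (circles), DSS day 3 (squares) and control (diamonds). The neutrophil list spans 84.2 RPKM in PhIP/DSS day 3, 1311 in DSS day 3 and 24.6 in control, while the epithelial identity list lies between 12710 and 14085 RPKM in the 3 libraries.

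Interferon-inducible genes lay above control throughout the list. All 39 genes of the list had a ratio above 1 in PhIP/DSS day 3 over control, beside 46.6% of all genes compared, and 19 were at least 2-fold higher, beside 5.48% of all genes. The median log2 ratio of the list was 0.98, and the ratios ran from 1.12 for Rsad2 to 4.55 for Ido1. Ido1, which breaks down tryptophan, was at 17.9 RPKM in PhIP/DSS day 3, 9.30 in DSS day 3 and 3.94 in control, with an interval of its ratio over control of 3.31 to 6.36. Zbp1, a sensor of left-handed nucleic acids that can start necroptosis, was at 59.95 RPKM in PhIP/DSS day 3, 34.6 in DSS day 3 and 13.7 in control. Ifit2, which restrains translation of viral RNA, was at 14.3 RPKM in PhIP/DSS day 3, 8.25 in DSS day 3 and 3.93 in control. Iigp1, a GTPase that attacks vacuoles of intracellular parasites, had 272 reads in PhIP/DSS day 3, 165 in DSS day 3 and 62 in control. Irf1, the transcription factor induced by interferon gamma, had a ratio of 1.72 (1.60 to 1.85), and Irf7, which drives type I interferon genes, a ratio of 1.35 (1.25 to 1.46).

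These genes also stood above the DSS day 3 library. Of 39 members, 37 had a ratio above 1 in PhIP/DSS day 3 over DSS day 3, beside 52.3% of all genes, with a median log2 ratio of 0.51. Of them 2, Mx1 and Cmpk2, were at least 2-fold higher, beside 2.76% of all genes, and 1, Gbp5, was at least 2-fold lower. Gbp5 was at 1.96 RPKM in PhIP/DSS day 3, 10.1 in DSS day 3 and 0.605 in control. In DSS day 3 over control, which shares the control library, 35 of 39 members also had a ratio above 1 and 4 a ratio below 1. The median log2 ratio of the list there was 0.46, beside -0.05 over all genes. Of the 39 members, 6 were at least 2-fold higher in DSS day 3 than in control, beside 9.05% of all genes, and 0 lower, beside 9.17%. The list summed to 1088 RPKM in PhIP/DSS day 3, 762.5 RPKM in DSS day 3 and 571.7 RPKM in control. MHC class II genes, which interferon gamma can also induce, were close to control, with 0 of 10 at least 2-fold higher, 1 at least 2-fold lower (H2-Eb2, with 4 reads in PhIP/DSS day 3 and 11 in control) and a median log2 ratio of 0.20. The summed T and NK cell markers, given above, were lower in PhIP/DSS day 3 than in control. The part of these cells in the interferon gene values was not tested.

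**Figure D3:**
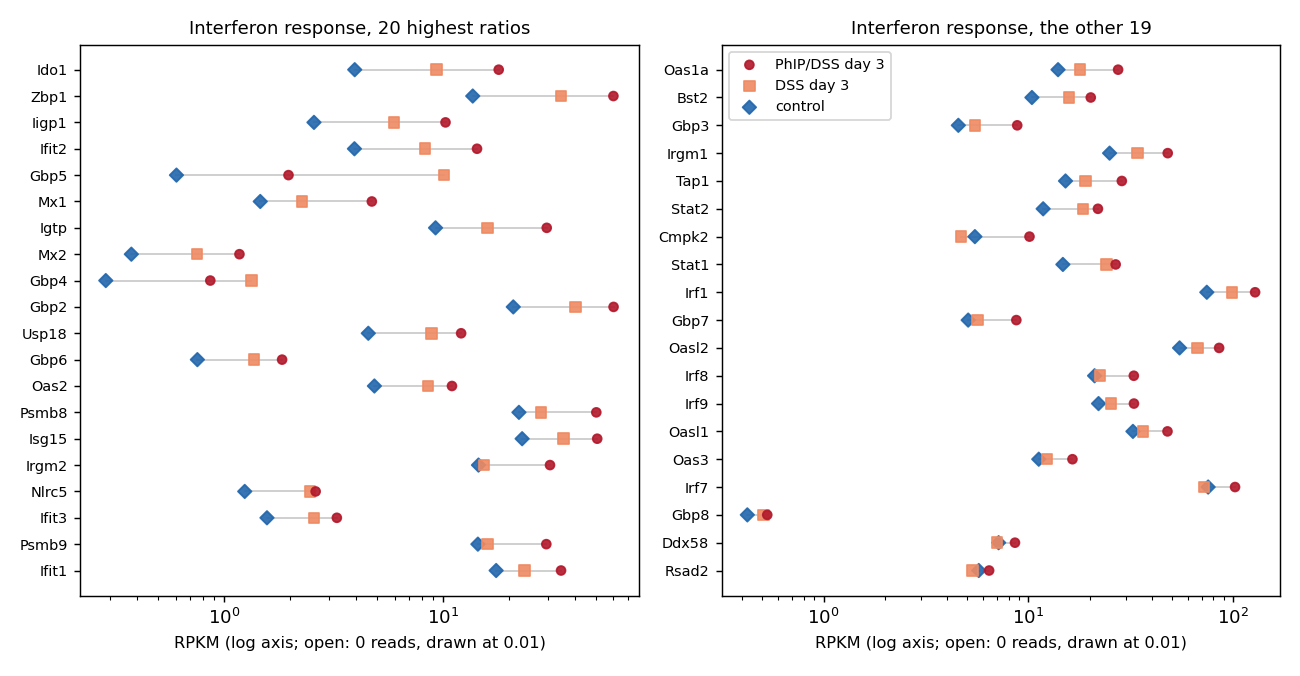
RPKM on a log axis of the 39 interferon response genes in PhIP/DSS day 3 (circles), DSS day 3 (squares) and control (diamonds), ordered by the ratio of PhIP/DSS day 3 over control. Each circle lies right of its diamond, and in 37 of 39 genes the depth-scaled reads were also higher than in DSS day 3.

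Promoter sequence was read for these genes because they lay on one side of the control. RefSeq windows of build GRCm38.p6, from 250 bases before to 50 after each start, were searched on both strands for 10 motifs picked after the values were seen. The motifs were GAAANNGAA (core of the interferon-stimulated response element), TTCNNNGAA (gamma-activated site), GGGANNTTC (a short form of the NF-kappaB site), GGAANNGAA (ETS and IRF composite), GAANNTTC (a heat shock element unit), TGANTCA (AP-1), TGACNNNGC (core of the antioxidant response element), TATAAA, TTATGTAA (D-box) and CACGTG (E-box). Matches of different motifs may overlap. A gene with several windows was taken to have a motif if any of them held a match. GAAANNGAA was found for 16 of the 27 interferon list genes that had a window (59.3%), beside 8.64% of the 10685 counted genes with a window. TTCNNNGAA was found for 10 of the 27 (37.0%), beside 8.38% of the counted genes. Genes on 1 chromosome were left out of the sequences shown here and below. Of the other list genes at least 2-fold higher than control with a GAAANNGAA match, 5 are shown as examples of where the letters lie. They are those whose counting interval lay furthest above 1. Each is given as 60 bases around the match nearest the start, in the direction of transcription, with GAAANNGAA or its reverse complement in capitals. They lie at chr11:58199496-58199555 (+ strand, Igtp), chr3:142620579-142620638 (+ strand, Gbp2), chr11:58214887-58214946 (+ strand, Irgm2), chr4:156200851-156200910 (- strand, Isg15) and chr3:142496744-142496803 (+ strand, Gbp5).
Igtp: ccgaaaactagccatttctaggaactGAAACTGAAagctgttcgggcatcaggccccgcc
Gbp2: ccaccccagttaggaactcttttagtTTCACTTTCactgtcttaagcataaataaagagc
Irgm2: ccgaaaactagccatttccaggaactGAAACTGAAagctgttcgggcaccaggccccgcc
Isg15: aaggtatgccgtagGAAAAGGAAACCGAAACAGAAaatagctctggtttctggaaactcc
Gbp5: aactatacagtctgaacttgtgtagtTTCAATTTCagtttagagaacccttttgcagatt
The ratios over control of these 5 genes ran from 2.12 to 3.25. Ido1, Zbp1, Iigp1 and Ifit2, with the 4 highest ratios of the list, are not among them, which does not show that they lack the motif. The windows of Igtp and Irgm2, neighbouring GTPase genes, differ at 2 of 60 bases, and the Isg15 window holds 3 overlapping matches. Igtp was at 29.7 RPKM in PhIP/DSS day 3, 15.9 in DSS day 3 and 9.23 in control, and Irgm2 at 30.8 RPKM in PhIP/DSS day 3, 15.4 in DSS day 3 and 14.5 in control. Isg15, a ubiquitin-like modifier, was at 50.6 RPKM in PhIP/DSS day 3, 35.5 in DSS day 3 and 22.9 in control, and Gbp2, a guanylate-binding protein, at 60.05 RPKM in PhIP/DSS day 3, 40.2 in DSS day 3 and 20.9 in control.

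Heat shock chaperones had a ratio above 1 in PhIP/DSS day 3 over control for each of the 15 genes counted, beside 46.6% of all genes, with a median log2 ratio of 0.80. At least 2-fold higher were 5 (Hspa1a, Hspa1b, Hsph1, Hspb1 and Dnaja1), beside 5.48% of all genes. Hspa1b and Hspa1a, the inducible Hsp70 genes, are near-identical copies whose reads may have been split, and they were at 28.2 and 10.6 RPKM in PhIP/DSS day 3, 26.6 and 7.86 in DSS day 3, and 1.95 and 0.606 in control. Hsph1, which exchanges nucleotide on Hsp70, was at 30.3 RPKM in PhIP/DSS day 3, 39.8 in DSS day 3 and 6.53 in control, a ratio over control of 4.64 (3.94 to 5.49). Dnaja1, an Hsp40 partner of Hsp70, had a ratio over control of 2.32 (2.11 to 2.56). Hspa8, the constitutive family member, was at 1306 RPKM in PhIP/DSS day 3, 1537 in DSS day 3 and 749 in control, a ratio of 1.74. GAANNTTC, the palindromic unit bound by heat shock factor, was found for 8 of the 11 list genes with a window (72.7%), beside 6.97% of the 10685 counted genes with a window. The windows of 60 bases around the match nearest the start, in capitals, lie at chr17:34959309-34959368 (- strand, Hspa1b), chr17:34972227-34972286 (- strand, Hspa1a), chr5:149636266-149636325 (- strand, Hsph1) and chr4:40722318-40722377 (+ strand, Dnaja1).
Hspa1b: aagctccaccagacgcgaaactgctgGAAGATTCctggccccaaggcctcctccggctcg
Hspa1a: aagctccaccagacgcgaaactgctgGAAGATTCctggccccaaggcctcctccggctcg
Hsph1: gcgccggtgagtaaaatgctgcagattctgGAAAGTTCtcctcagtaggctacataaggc
Dnaja1: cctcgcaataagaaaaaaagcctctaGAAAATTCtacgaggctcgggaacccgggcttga
The windows of Hspa1a and Hspa1b differ at 0 of 60 bases.

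Genes known from repairing epithelium had a median above control. Of 32 regenerative epithelium genes counted, 14 were at least 2-fold higher in PhIP/DSS day 3 than in control and 0 were lower, beside 5.48% and 6.89% of all genes, with a median log2 ratio of 0.76. Ly6a (Sca-1), a marker of the fetal-like state of injured crypts, was at 617.6 RPKM in PhIP/DSS day 3, 820.5 in DSS day 3 and 196.2 in control, a ratio over control of 3.15 (2.97 to 3.34). Plaur, the urokinase receptor, was at 35.97 RPKM in PhIP/DSS day 3, 37.0 in DSS day 3 and 6.82 in control. Sprr1a, a cornified envelope protein also found in stressed gut epithelium, was at 146.4 RPKM in PhIP/DSS day 3, 80.3 in DSS day 3 and 33.0 in control. Areg and Ereg, ligands of the EGF receptor, were at 40.6 and 2.07 RPKM in PhIP/DSS day 3, 46.9 and 4.24 in DSS day 3, and 15.6 and 0.316 in control. In all, 3 of 12 EGF receptor ligands and receptors were at least 2-fold higher (Areg, Ereg and Nrg1) and 1 lower (Egf). Of 6 mucins counted, 0 were past 2-fold in either direction. Cldn4, a claudin, was at 123.3 RPKM in PhIP/DSS day 3, 100.5 in DSS day 3 and 57.1 in control, and it was the 1 of 16 tight junction genes past 2-fold. Of 5 squamous markers counted, 3 were at least 2-fold higher (Krt13, Krt14 and Dsg3) and 2 lower (Lor and Sbsn). Krt13 had 35 reads in PhIP/DSS day 3, 50 in DSS day 3 and 0 in control, a ratio over control of 10.6 with the 0 entered as 3 reads.

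TGANTCA, the AP-1 motif, was found in the windows of 93 of 550 genes at least 2-fold higher in PhIP/DSS day 3 (16.9%), of 61 of 709 genes at least 2-fold lower (8.60%) and of 571 of 9426 genes within 2-fold (6.06%). Its share over the 10685 counted genes with a window was 6.785%. TATAAA was found for 16.2% of the higher genes, 11.6% of the lower and 8.57% of those within 2-fold, beside 9.16% of the 10685 counted genes with a window. A match is a description of these letters, not of binding. The 5 sequences below are of higher genes with an AP-1 match, shown because they include genes named above. These genes ranked first by counting interval at 1 RPKM or more in either library, outside the chromosome left out. Capitals mark TGANTCA in windows at chr9:7692001-7692060 (+ strand, Mmp7), chr9:50494355-50494414 (+ strand, Plet1), chr2:122298706-122298765 (+ strand, Duoxa2), chr17:36867143-36867202 (- strand, Trim15) and chr3:92385461-92385520 (+ strand, Sprr2h).
Mmp7: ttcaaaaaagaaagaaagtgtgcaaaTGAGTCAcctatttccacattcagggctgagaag
Plet1: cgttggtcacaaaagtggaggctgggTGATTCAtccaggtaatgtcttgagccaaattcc
Duoxa2: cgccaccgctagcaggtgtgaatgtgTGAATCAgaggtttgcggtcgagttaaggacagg
Trim15: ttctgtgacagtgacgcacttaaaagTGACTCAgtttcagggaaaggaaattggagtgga
Sprr2h: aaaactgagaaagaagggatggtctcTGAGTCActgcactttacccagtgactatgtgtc
Trim15, a ubiquitin ligase of the TRIM family, was at 51.6 RPKM in PhIP/DSS day 3, 54.2 in DSS day 3 and 4.39 in control. Sprr2h, a small proline-rich protein, had 89 reads in PhIP/DSS day 3 and 3 in control, a ratio of 27.0 (8.94 to 133.4).

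Tuft cell markers had the lowest median of the epithelial lists. Tuft cells are rare chemosensory cells of the epithelium. Of 16 markers counted, 13 were at least 2-fold lower in PhIP/DSS day 3 than in control and 0 higher, with a median log2 ratio of -1.68, beside 6.89% of all genes at least 2-fold lower. The list held 20 genes, and some of the scarce ones, such as Pou2f3, were counted through their reads in control. Trpm5, the taste transduction channel, had 28 reads in PhIP/DSS day 3, 28 in DSS day 3 and 158 in control, a ratio over control of 0.161 (0.104 to 0.242). Dclk1, a kinase used as the tuft cell marker, had 55 reads in PhIP/DSS day 3, 46 in DSS day 3 and 172 in control. Sh2d7, an adaptor, had 17 reads in PhIP/DSS day 3, 13 in DSS day 3 and 87 in control. Pou2f3, the transcription factor that specifies tuft cells, had 5 reads in PhIP/DSS day 3 and 18 in control, a ratio of 0.253 (0.0733 to 0.706). Avil, an actin regulator, and Cd24a, a surface protein of many epithelial cells, were near control, with ratios of 0.983 and 1.04. Alox5ap and Fyb, which leukocytes also express, were below control in PhIP/DSS day 3 and above it in DSS day 3. Alox5ap was at 2.86 RPKM in PhIP/DSS day 3, 36.3 in DSS day 3 and 4.49 in control.

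Several genes of ion and water transport were lower. Of 32 counted, 7 were at least 2-fold lower in PhIP/DSS day 3 than in control and 3 at least 2-fold higher, beside 6.89% and 5.48% of all genes, with a median log2 ratio of -0.52. The 3 higher genes were Clca4a, Clca4b and Clca3a2. Slc26a3, the chloride and bicarbonate exchanger of surface cells, was at 149.7 RPKM in PhIP/DSS day 3, 160.9 in DSS day 3 and 469.8 in control, a ratio over control of 0.319 (0.307 to 0.331). Slc4a4, a sodium bicarbonate cotransporter, was at 7.45 RPKM in PhIP/DSS day 3, 6.67 in DSS day 3 and 26.8 in control. Scnn1b, the beta subunit of the epithelial sodium channel, was at 6.18 RPKM in PhIP/DSS day 3, 22.2 in DSS day 3 and 14.5 in control. Best2, a bicarbonate channel of goblet cells, was at 21.8 RPKM in PhIP/DSS day 3, 62.7 in DSS day 3 and 47.1 in control. Scnn1b and Best2 were thus below control in PhIP/DSS day 3 and above it in DSS day 3. Car4, a carbonic anhydrase, was at 560.4 RPKM in PhIP/DSS day 3, 420.7 in DSS day 3 and 1326 in control, whereas Car1 was at 714.4 RPKM in PhIP/DSS day 3, 668.9 in DSS day 3 and 368.3 in control.

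Genes of calcium uptake included some of the widest differences between the 2 treated libraries. Trpv6, the apical calcium channel, was at 9.19 RPKM in PhIP/DSS day 3, 0.309 in DSS day 3 and 3.28 in control. It was 2.80-fold (2.15 to 3.70) higher in PhIP/DSS day 3 than in control and 29.7-fold (14.8 to 69.7) higher than in DSS day 3. S100g (calbindin D9k), which carries calcium through the cell, had 56 reads in PhIP/DSS day 3, 2 in DSS day 3 and 172 in control. Its ratio was 0.296 (0.215 to 0.403) over control and 29.2 (7.71 to 246.9) over DSS day 3. Vdr, the vitamin D receptor, was at 97.8 RPKM in PhIP/DSS day 3, 64.2 in DSS day 3 and 199.3 in control. Of the 6 calcium and vitamin D genes counted, 1 was at least 2-fold higher and 2 at least 2-fold lower than control, beside 5.48% and 6.89% of all genes.

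**Figure D4:**
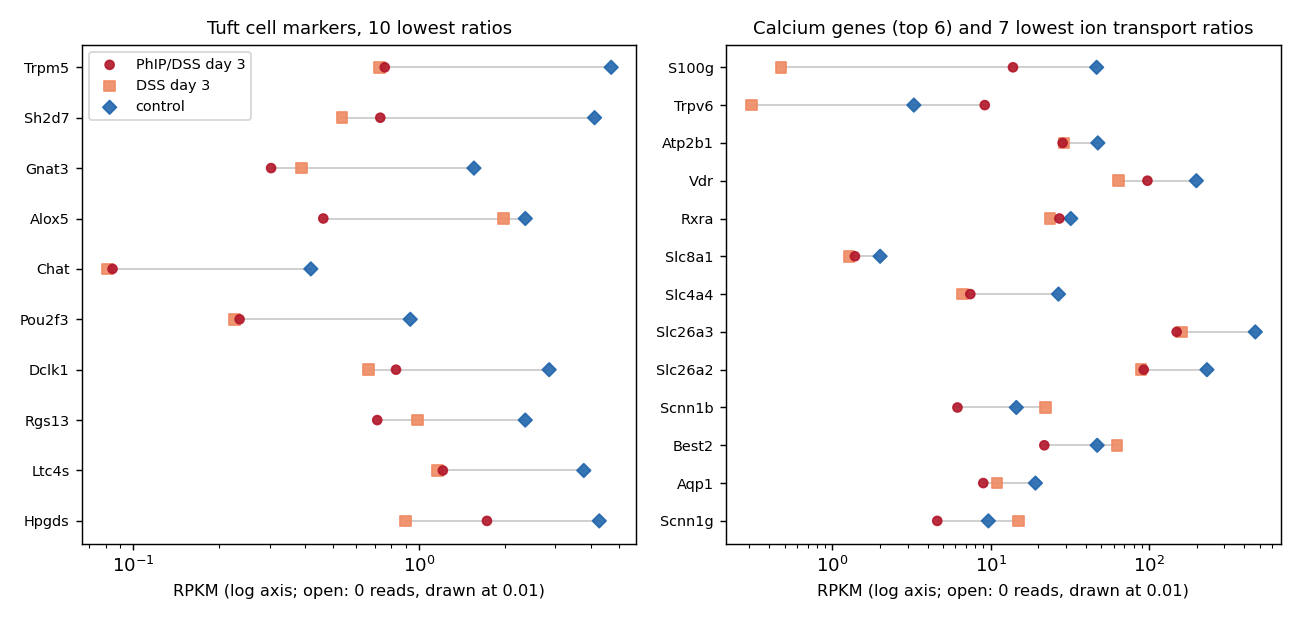
RPKM on a log axis in PhIP/DSS day 3 (circles), DSS day 3 (squares) and control (diamonds) for the 10 tuft cell markers with the lowest ratios over control, and for 6 calcium genes above the 7 ion transport genes at least 2-fold lower. The 10 tuft markers, chosen for low ratios over this control, lie left of it in both treated libraries. In the whole tuft list, 6 of 16 markers counted had a ratio above 1 in DSS day 3 over control. Trpv6 and S100g lie at 9.19 and 13.9 RPKM in PhIP/DSS day 3 and below 1 RPKM in DSS day 3.

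Goblet and absorptive cell markers had medians near 0, and hormone cell markers a median above it. Of 23 goblet markers, 1, Spink4, was at least 2-fold higher than control and 2, Mptx1 and Best2, at least 2-fold lower, with a median log2 ratio of -0.08. Muc2, the gel-forming mucin, was at 807.4 RPKM in PhIP/DSS day 3, 1238 in DSS day 3 and 1180 in control, a ratio over control of 0.684. Spink4, a secreted peptide of goblet cells, was at 2474 RPKM in PhIP/DSS day 3, 1937 in DSS day 3 and 849.7 in control, a ratio over control of 2.91 (2.79 to 3.04). Of 26 absorptive markers, 4 were at least 2-fold lower (Slc26a3, Car4, Sult1a1 and Cyp2s1) and 1 higher (Prap1, with 25 reads in PhIP/DSS day 3 and 3 in control), with a median log2 ratio of -0.06. Of 21 enteroendocrine markers, 5 were at least 2-fold higher than control (Cck, Sct, Nts, Neurog3 and Tac1) and 1, Pax6, lower, beside 5.48% and 6.89% of all genes, with a median log2 ratio of 0.55. Pyy and Insl5, hormones of colonic L cells, were at 330.8 and 133.6 RPKM in PhIP/DSS day 3, 164.2 and 59.3 in DSS day 3, and 221.1 and 71.7 in control. Against DSS day 3, 20 of 21 enteroendocrine markers had a ratio above 1, beside 52.3% of all genes, and 6 were at least 2-fold higher, beside 2.76% of all genes. Chga, chromogranin A, was at 47.5 RPKM in PhIP/DSS day 3, 26.1 in DSS day 3 and 57.6 in control.

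Crypt genes held near control as a list. Of 21 crypt stem cell and Wnt target genes, 1 was at least 2-fold higher and 1 lower than control. These counts are near the 5.48% and 6.89% of all genes. Ascl2, a stem cell transcription factor, was at 2.13 RPKM in PhIP/DSS day 3, 1.63 in DSS day 3 and 7.93 in control, a ratio over control of 0.269 (0.172 to 0.411). Axin2, a Wnt feedback gene, was at 10.1 RPKM in PhIP/DSS day 3, 5.22 in DSS day 3 and 19.9 in control, just inside 2-fold. Prom1, a surface protein of crypt cells, was at 120.9 RPKM in PhIP/DSS day 3, 214.6 in DSS day 3 and 45.2 in control. Genes of DNA replication had a ratio above 1 for 31 of 33 members, beside 46.6% of all genes, with a median log2 ratio of 0.44. At least 2-fold higher were 3, Cdc6, Cdc45 and Rrm2, which is near the 5.48% of all genes. Rrm2, a ribonucleotide reductase subunit, was at 12.8 RPKM in PhIP/DSS day 3, 17.4 in DSS day 3 and 4.39 in control. Of 27 mitosis genes, 0 were past 2-fold in either direction, and the median log2 ratio was 0.03. Mki67, a proliferation marker, had a ratio of 0.744 and Top2a, topoisomerase II, a ratio of 1.24.

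PhIP is a DNA-damaging agent, so p53 targets and repair genes were examined. Of 29 p53 target genes, 0 were at least 2-fold higher in PhIP/DSS day 3 than in control and 3, Gdf15, Plk3 and Eda2r, were at least 2-fold lower, with a median log2 ratio of 0.04. Beside 5.48% of all genes higher and 6.89% lower, these counts are near the background. Cdkn1a (p21), the cell cycle inhibitor, was at 250.8 RPKM in PhIP/DSS day 3, 237.1 in DSS day 3 and 252.2 in control, a ratio over control of 0.994 (0.951 to 1.04). Gdf15, a stress cytokine, had 13 reads in PhIP/DSS day 3, 16 in DSS day 3 and 37 in control. Plk3, a stress kinase, was at 14.2 RPKM in PhIP/DSS day 3, 16.4 in DSS day 3 and 32.1 in control. Of 30 DNA repair genes, 0 were 2-fold higher and 1, the alkyltransferase Mgmt with 4 reads in PhIP/DSS day 3 and 16 in control, was lower. Against DSS day 3, 0 of the 29 p53 targets and 0 of the 30 repair genes were past 2-fold in either direction.

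Several enzymes that handle PhIP and other foreign compounds were lower than in control in both treated libraries. Of 29 genes counted of the aryl hydrocarbon receptor and PhIP metabolism list, 7 were at least 2-fold lower in PhIP/DSS day 3 than in control and 1 was at least 2-fold higher, beside 6.89% and 5.48% of all genes, with a median log2 ratio of -0.26. Sult1a1, a sulfotransferase whose human counterpart can activate N-hydroxy-PhIP, was at 53.4 RPKM in PhIP/DSS day 3, 39.1 in DSS day 3 and 184.4 in control, a ratio over control of 0.289 (0.264 to 0.316). Cyp2c55, a cytochrome P450 of the colon, was at 60.6 RPKM in PhIP/DSS day 3, 13.2 in DSS day 3 and 131.5 in control. Cyp2s1, Cyp3a13 and Ugt2b35 had ratios over control of 0.397, 0.434 and 0.301. In DSS day 3, without PhIP, 10 of 29 genes of the list were at least 2-fold lower than control and 2 higher. Those counts stand beside 9.17% and 9.05% of all genes, and the median log2 ratio there was -0.62. The gene at least 2-fold higher in PhIP/DSS day 3 than in control was Nqo1, a quinone reductase controlled by NRF2. It was at 30.7 RPKM in PhIP/DSS day 3, 23.3 in DSS day 3 and 10.7 in control. Of 29 NRF2 targets, 7 were at least 2-fold higher and 1, Ephx1, lower, beside 5.48% and 6.89% of all genes, with a median log2 ratio of 0.47. Gpx2, the glutathione peroxidase of gut epithelium, was at 666.8 RPKM in PhIP/DSS day 3, 656.6 in DSS day 3 and 192.6 in control.

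Genes of secretion and energy metabolism stayed mostly inside 2-fold, as did 87.6% of all genes. Of all genes, 5.48% were at least 2-fold higher than control and 6.89% at least 2-fold lower. The counts past 2-fold in this paragraph are near or below these shares. Of 26 unfolded protein response genes, 22 had a ratio above 1, beside 46.6% of all genes, and 1, Chac1 with 17 reads in PhIP/DSS day 3 and 1 in control, was at least 2-fold higher, with a median log2 ratio of 0.50. Hspa5 (BiP), the chief chaperone of the endoplasmic reticulum, was at 223.9 RPKM in PhIP/DSS day 3, 285.3 in DSS day 3 and 119.2 in control. Of 36 respiratory chain genes, 0 were past 2-fold, and the median was -0.01. Of 29 genes of butyrate uptake and fatty acid oxidation, 2 were at least 2-fold lower, Ppargc1a and Ppara, regulators of oxidative metabolism with ratios of 0.332 and 0.367, and 1, Pdk4, was higher. Of 27 hypoxia and glycolysis genes, 2 were at least 2-fold higher, Pfkfb3 and the lactate exporter Slc16a3, with ratios of 4.26 and 3.84.

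**Figure D5:**
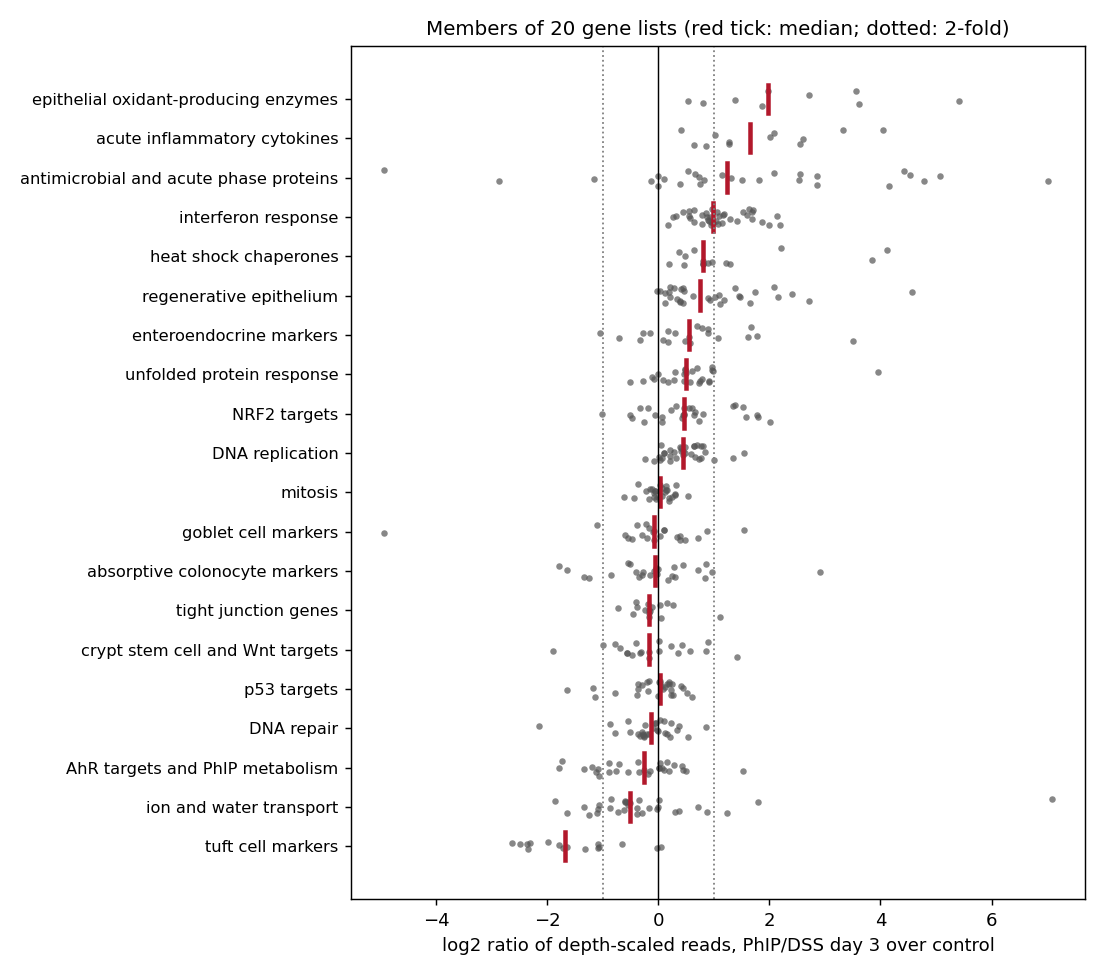
Log2 ratio of depth-scaled reads, PhIP/DSS day 3 over control, of each counted member of 20 gene lists (grey points), with the median of each list (red tick) and dotted lines at 2-fold. Medians run from 1.98 for oxidant-producing enzymes to -1.68 for tuft cell markers, and the 39 interferon genes form a narrow group right of 0.

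The direct comparison with DSS day 3 does not use the control library. Of 13465 genes with at least 10 reads over this pair, 372 (2.76%) were at least 2-fold higher in PhIP/DSS day 3 and 811 (6.02%) at least 2-fold lower. The 10 genes furthest below DSS day 3 were Saa3, Ngp, Mmp8, Lcn2, Spp1, Chil3, S100a9, Retnlg, S100a8 and Hp. Lcn2, the siderophore-binding lipocalin, was at 4.45 RPKM in PhIP/DSS day 3, 253.1 in DSS day 3 and 0.765 in control. Saa3, a serum amyloid A of macrophages and epithelium, had 27 reads in PhIP/DSS day 3, 2059 in DSS day 3 and 7 in control. Of 19 neutrophil markers counted in this pair, many of them only through their reads in DSS day 3, 18 were at least 2-fold lower in PhIP/DSS day 3 than in DSS day 3, with a median log2 ratio of -4.22. Of 20 macrophage and monocyte markers, 13 were at least 2-fold lower, and of 18 fibroblast markers, 6. The part of these cells in the lower values of Lcn2 and Saa3 was not tested.

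The 10 genes furthest above DSS day 3 were Mptx1, Trpv6, S100g, Nlrp1b, Slc37a2, Hoxd11, Prss23, Ephb6, Cyp2c55 and Hoxd13. Hoxd13 and Hoxd11, posterior patterning genes expressed in the distal gut, were at 51.6 and 6.75 RPKM in PhIP/DSS day 3, 11.3 and 0.978 in DSS day 3, and 50.6 and 7.32 in control. Prss23, a serine protease, was at 7.25 RPKM in PhIP/DSS day 3, 1.17 in DSS day 3 and 27.4 in control. Ephb6, a kinase-dead ephrin receptor, was at 7.32 RPKM in PhIP/DSS day 3, 1.27 in DSS day 3 and 5.76 in control. Of these 10, Hoxd11, Hoxd13 and Ephb6 were within 2-fold of control in PhIP/DSS day 3, and Mptx1, S100g, Slc37a2, Prss23 and Cyp2c55 were more than 2-fold below it. Trpv6 and Nlrp1b, an inflammasome sensor, were more than 2-fold above control.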

How the data were processed

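Total RNA of scraped colon epithelium, pooled from 3 mice a library and enriched for poly(A), was sequenced, per the labels' protocols. The deposited tables give unique read counts and RPKM per gene, per the file headers. The submitters' processing notes name build mm10 and FastQC. The aligner, annotation, counting rules and strand setting were not given in the sources used here, so overlapping and antisense genes cannot be separated.

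The tables were joined on gene ID, with a missing gene taken as 0 reads. RefSeq gave symbols for 17983 of 18036 IDs, and 53 had none. Reads were divided by the library total. Genes with at least 10 reads over a pair entered, and 0 reads were entered as 3 per library. Intervals are exact 95% binomial intervals of the split of reads, which cover counting error only. They were checked on simulated counts drawn independently, as the intervals assume, so the check does not reach amplified reads. For a 0 count the smallest detectable level is about 0.36 RPKM for a 1 kb gene at 3 reads in PhIP/DSS day 3 and 0.39 RPKM in control.

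Members of 43 lists (931 entries, 911 matched) and all comparisons were chosen with earlier results of these data known. Named were the 15 genes furthest from control in each direction by the interval bound nearest 1, at 1 RPKM or more in either library, the 10 furthest from DSS day 3, Cyp1a1 and Cyp1a2, and in each list the 4 most abundant, 4 highest and 4 lowest members. Genes shown for promoter motifs, clock, Hox and gasdermin genes, Gbp5 and any other gene outside these rules were added after their values were seen. Alternatives changed the scaling (TMM of edgeR 4.0.16 in R 4.3.3, median of ratios, totals without the 20 most abundant genes), the read minimum, the fold and the use of RPKM. Python 3.11.15, numpy 2.4.6, pandas 2.3.3, scipy 1.17.1 and matplotlib 3.10.9 were used. Values of some list members are not reported here.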

Additional observations from a re-analysis of the deposited data

Results flagged for a closer look

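Of the genes named for the comparison, 2 lay past 2-fold in opposite directions from the same control library in the 2 treatments. Trpv6 was 2.80-fold higher than control in PhIP/DSS day 3, while its ratio in DSS day 3 over control was 0.0944. Nlrp1b was 2.12-fold higher than control in PhIP/DSS day 3, at 3.25 RPKM against 1.54 in control, while its ratio in DSS day 3 over control was 0.160. Set directly against each other, PhIP/DSS day 3 was 29.7-fold (14.8 to 69.7) above DSS day 3 for Trpv6 and 13.2-fold (6.72 to 29.6) for Nlrp1b, with intervals of counting error only. With 1 pool a group the difference between the treatments was not tested.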

How the results depend on the processing

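No paired analysis was possible because each group is 1 pooled library and the result comes from no test. Under TMM, median-of-ratios and abundance-trimmed scaling, which moved every gene by at most 0.05 on the log2 scale against control, and with log2(RPKM + 0.1), the 4 counts of genes past 2-fold stayed within 1.5 times. The other settings moved all 4 counts, given here in the order higher than control, lower than control, higher than DSS day 3 and lower than DSS day 3. The main counts were 735, 924, 372 and 811. At least 50 reads gave 381, 444, 117 and 382. At least 1 read gave 1520, 1910, 1336 and 1595. A 1.5-fold limit gave 1461, 2062, 922 and 1294, and a 4-fold limit 237, 225, 60 and 340. With log2(RPKM + 1) they were 317, 276, 71 and 299. Requiring the whole counting interval past 2-fold left 270, 243, 49 and 315. These alternatives change the genes entered or the limit by construction. No named gene past 2-fold changed direction under the scalings or RPKM pseudocounts tried. These settings could hardly reverse such a gene, since the scalings moved ratios by at most 0.05 and a shared pseudocount draws a ratio toward 1. Over 415 named genes, values left their main counting interval for 24 under TMM scaling, 11 under median-of-ratios scaling and 54 with log2(RPKM + 1). Of 86 list counts, TMM scaling moved 6, median-of-ratios scaling 3, log2(RPKM + 1) 27, log2(RPKM + 0.1) 7 and the minimum of 50 reads 24 by more than 1.5 times, and totals without the 20 most abundant genes moved 0. Leaving out a replicate could not be done with 1 library a group. Values resting on few reads, such as the control levels of Lrg1, Mmp7 and Prss22, are limited by depth, and differences between mice could not be measured.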

Other observations

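The posterior HoxD genes, picked after their values were seen, stood near control in PhIP/DSS day 3 and low in DSS day 3. Hoxd10 was at 8.34 RPKM in PhIP/DSS day 3, 1.35 in DSS day 3 and 9.66 in control, and Hoxd12 at 2.11 RPKM in PhIP/DSS day 3, 0.315 in DSS day 3 and 2.57 in control. Hoxd13 stood at 7.501, 51.6 and 70.8 RPKM on days 1, 3 and 7 of the PhIP/DSS series, and at 21.5, 11.3 and 29.7 RPKM on days 1, 3 and 7 of the DSS series. Of 5 HoxD genes with enough reads, of 8 in the list, 5 were at least 2-fold higher in PhIP/DSS day 3 than in DSS day 3, beside 2.76% of all genes in that pair, and 0 were past 2-fold from control. Of 15 other Hox genes counted in that pair, 1, Hoxa4, was at least 2-fold higher and 2 were at least 2-fold lower. Hoxb13, the most abundant of these, was at 195.7 RPKM in PhIP/DSS day 3, 133.9 in DSS day 3 and 320.3 in control.

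Of 7 genes of the gasdermin C group and its relatives, whose close copies may share reads, 4 were at least 2-fold higher in PhIP/DSS day 3 than in DSS day 3, beside 2.76% of all genes, and 3 were at least 2-fold lower in PhIP/DSS day 3 than in control, beside 6.89%. Gsdmc2 was at 89.3 RPKM in PhIP/DSS day 3, 26.4 in DSS day 3 and 213.8 in control, Gsdmc3 at 23.3 RPKM in PhIP/DSS day 3, 7.12 in DSS day 3 and 102.8 in control, and Gsdmc4 at 193.3 RPKM in PhIP/DSS day 3, 59.1 in DSS day 3 and 345.7 in control. Gsdmd, which forms pores in pyroptosis, was at 106.7 RPKM in PhIP/DSS day 3, 108.5 in DSS day 3 and 74.0 in control.

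Genes of the circadian clock were also picked after their values were seen. Of 18 counted, 6 were at least 2-fold lower in PhIP/DSS day 3 than in control and 1, Nfil3, was higher, beside 6.89% and 5.48% of all genes. Nr1d1, a repressor of the clock, was at 39.1 RPKM in PhIP/DSS day 3, 25.7 in DSS day 3 and 110.2 in control, and Cry2 was at 2.81 RPKM in PhIP/DSS day 3, 3.65 in DSS day 3 and 9.12 in control. Dbp was below 3 RPKM in each of the 6 treated libraries, against 15.8 in control. Arntl, the positive arm of the clock, was at 18.98 RPKM in PhIP/DSS day 3, 20.8 in DSS day 3 and 20.4 in control.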
